A study of Rattus norvegicus with 111 samples.

Results

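Hmox1 (ENSRNOG00000014117), Nqo1 (ENSRNOG00000012772) and Gclc (ENSRNOG00000006302) were followed in the livers of pregnant rats and of their fetuses after dosing with PFO5DoA or PFO4DA. These 3 genes, given by identifier as indicators of the oxidative stress response, with no threshold on their values but with earlier results of these data known, are 3 of the 20311 genes in the deposited tables. Both chemicals are perfluoroalkyl ether carboxylic acids, and PFO5DoA is the longer homolog, with a further perfluorinated ether unit in its chain. The design asks how gene expression in either liver responds to increasing doses of either acid.

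All 3 genes are classical targets of NRF2 (Nfe2l2), a transcription factor that KEAP1 holds in check and that is released when electrophiles or oxidants modify KEAP1. Hmox1 encodes the inducible haem oxygenase, which opens haem to biliverdin, carbon monoxide and iron, and whose gene is also repressed by the haem sensor BACH1. Nqo1 encodes NAD(P)H quinone dehydrogenase, which reduces quinones without releasing semiquinone radicals, and its gene also responds to the aryl hydrocarbon receptor. Gclc encodes the catalytic subunit of glutamate-cysteine ligase, the rate-limiting enzyme of glutathione synthesis. In the fetus the liver is a site of blood formation and iron handling as well as of metabolism.

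The animals were time-mated Sprague-Dawley rats, about 11 to 12 weeks old on arrival, dosed by mouth from gestational day 18 to 22 with the acid in 0.5% Tween-80 or with this vehicle alone. Livers were taken 2 to 4 hours after the last dose. The PFO5DoA groups used here were 5 vehicle dams, 3 dams per dose at 0.3 and 1 mg/kg/d, and 4 dams per dose at 3, 10 and 30 mg/kg/d, of which the last had fetal libraries for 3 dams. The PFO4DA groups were 6 vehicle dams and 4 dams per dose (0.3, 1, 3, 10, 30 and 62.5 mg/kg/d), each with both livers. Dams at 30 mg/kg/d PFO5DoA weighed about 17% less than controls by day 22, and 1 of them showed signs of fetal toxicity, per the labels; the effect of the chemical on these genes and that of the weight loss cannot be told apart in that group. The labels do not say how many fetuses a fetal library holds.

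The column names of the tables give the dam and not the life stage. Of the 2 libraries of a dam, the one whose expression over all genes correlated better with the only library of dam 2286, which the labels give as maternal, was taken as maternal liver. Pearson's r with that library lay between 0.9430 and 0.9876 in the 54 libraries so assigned and between 0.8605 and 0.9226 in their 54 partners, and leaving the 3 genes out of the correlation changed the assignment of 0 dams. Life stage is therefore a reading of the expression profile, and levels in maternal and fetal liver are set side by side without a test. The tables pair no identifier with a name, so markers of liver or of other cell types were not looked up. In a tissue sample, fewer cells that express a gene and less RNA per cell cannot be told apart.

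The 105 analysed libraries held between 7132999 and 15254939 counts. Behind each value for Hmox1 were 1112 to 9254 counts in a fetal library and 233 to 1991 in a maternal one. Gclc had 383 to 878 counts in fetal and 386 to 2007 in maternal liver. Nqo1 was counted least, with 20 to 267 counts in fetal and 86 to 1175 in maternal liver. TempO-Seq counts the ligation of gene-specific probes, and probes differ in efficiency, so levels are compared between dams and not between genes. CPM values below, that is library-size-scaled counts, are scaled with TMM factors within each chemical and life stage, and ± gives the SD over dams.

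The upstream sequence of Nqo1, the gene with the most changes, is shown as the reference for the response elements named above. It covers the 250 bases before the RefSeq transcription start of Nqo1 on the minus strand of the GRCr8 assembly, chr19:52220268-52220517, written 5′ to 3′ along the gene, with the core of a xenobiotic response element in capitals.
Nqo1 upstream: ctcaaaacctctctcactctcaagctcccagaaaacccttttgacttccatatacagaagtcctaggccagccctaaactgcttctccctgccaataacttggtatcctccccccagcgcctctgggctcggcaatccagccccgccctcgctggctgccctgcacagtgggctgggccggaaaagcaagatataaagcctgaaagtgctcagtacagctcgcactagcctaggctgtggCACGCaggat
The xenobiotic response element core GCGTG, searched on both strands, was matched 1 time, on the opposite strand, where it reads CACGC and ends 6 bases before the start; 25.9% of 33469 RefSeq promoters hold this core in the same window. The antioxidant response element core TGACNNNGC was matched 0 times in these 250 bases and in 10.1% of the promoters. A match is a string of letters, not a bound site, and a missing match concerns this window alone.

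In control dams, the livers of mother and fetus differed in all 3 genes. Scaled by library totals alone, Hmox1 was at 60.4 to 103 CPM in the 11 maternal control livers and at 156 to 297 CPM in the fetal ones. Fetal Hmox1 was higher in 5 of 5 PFO5DoA controls and in 6 of 6 PFO4DA controls, by 2.21-fold and 2.07-fold in a joint scaling of both livers. Nqo1 ran the other way, at 19.8 to 118 CPM in maternal and 5.03 to 26.2 CPM in fetal liver, and was higher in the mother in every control dam, by 3.97-fold and 2.65-fold. Gclc was likewise higher in the mother in every control dam, at 57.3 to 202 against 35.1 to 70.8 CPM, by 2.91-fold and 2.27-fold. In plain CPM the ratios of the control means were 3.04 and 2.71 for Hmox1, 3.23 and 1.99 for Nqo1 and 2.23 and 1.75 for Gclc (PFO5DoA, then PFO4DA), so the size of these differences depends on the scaling. Without dam 2263 the PFO5DoA ratio of Nqo1 was 2.11 and that of Gclc 1.81. Over the 52 dams of all doses with both livers, Hmox1 was higher in the fetus in 51, Nqo1 in 1 and Gclc in 5. How many of all genes differ as consistently between the livers was not counted. The livers were told apart by expression over all genes, so these counts do not set the 3 genes apart from others.

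**Figure D1:**
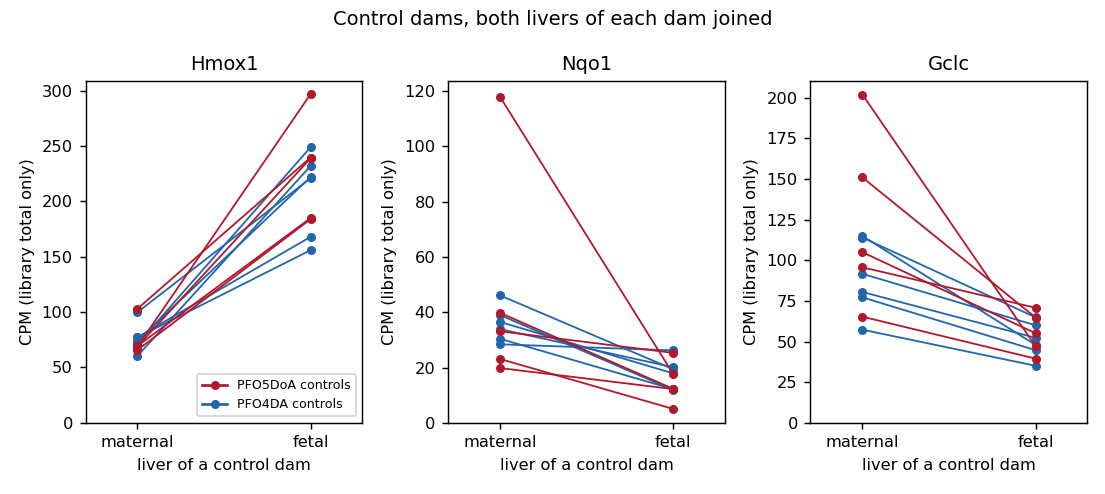
Levels of Hmox1, Nqo1 and Gclc in the maternal and fetal liver of each control dam (CPM scaled by library totals only), with a line joining the livers of 1 dam and colour giving the chemical whose controls they are. Every Hmox1 line rises towards the fetal liver and every Nqo1 and Gclc line falls, and the PFO5DoA control at 118 CPM for Nqo1 and 202 CPM for Gclc is dam 2263.

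Nqo1 fell with dose in fetal liver under both acids. Under PFO5DoA, the fetal controls were at 4.59, 12.1, 12.5, 21.0 and 24.5 CPM. The fetal livers at 3 mg/kg/d were at 3.17, 4.56, 5.26 and 6.54 CPM, those at 10 mg/kg/d at 2.24, 2.48, 3.71 and 4.04 CPM, and those at 30 mg/kg/d at 1.63, 1.92 and 3.47 CPM. Every liver at 10 and 30 mg/kg/d lay below every control, whereas the range at 3 mg/kg/d took in the lowest control, dam 2278. How many of all genes lie fully outside the range of their controls in the same groups was not counted. Here and below, such separation or overlap is therefore only a description of these genes. The fetal mean at 30 mg/kg/d was 2.34 ± 0.991 CPM (n = 3), or 15.7% of the control mean of 14.9 ± 7.88 CPM (n = 5). Against controls, edgeR's quasi-likelihood test gave log2 changes of -1.61 (SE 0.36, adjusted p = 0.00721) at 3 mg/kg/d, -2.25 (SE 0.38, adjusted p = 0.000227) at 10 mg/kg/d and -2.67 (SE 0.44, adjusted p = 8.72e-05) at 30 mg/kg/d. At 0.3 and 1 mg/kg/d the group means were 15.0 ± 2.31 and 11.1 ± 4.22 CPM (n = 3 each), and neither passed the test. Fitted with its own controls alone, the 3 mg/kg/d group had an adjusted p of 0.0536. In the order of group means, the ranges at 1 and 3 mg/kg/d were the only neighbours that did not overlap.

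These calls are read against the background of each comparison. Of the 11509 genes tested in fetal liver of the PFO5DoA dams, 0.113%, 2.40%, 7.08%, 14.7% and 29.9% passed at 0.3, 1, 3, 10 and 30 mg/kg/d, so that at the highest dose a call was common. The fall of Nqo1 across doses had a slope of -0.61 per unit of log2(dose + 1) (SE 0.071, adjusted p = 4.08e-07 by edgeR), in a trend test that called 36.0% of all genes. The dam identifiers of each chemical form 2 runs that each open with controls, and the labels do not say what a run is. Within the runs, Nqo1 in fetal liver differed from that run's own controls by a mean log2 of -2.67 and -1.26 at 10 mg/kg/d, with 2 dosed dams in each run, and its difference at 30 mg/kg/d, where all dams belong to the second run, was -1.78.

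Under PFO4DA the 6 fetal controls ranged from 13.0 to 25.2 CPM for Nqo1, with a median of 17.5. The fetal livers at 10 mg/kg/d were at 6.07, 7.63, 7.92 and 12.5 CPM, those at 30 mg/kg/d at 2.41, 5.01, 6.02 and 6.60 CPM and those at 62.5 mg/kg/d at 2.12, 3.22, 4.46 and 7.13 CPM. At all 3 of these doses each liver was below the lowest control. The group means descended in the order of the doses, from 18.2 ± 4.91 CPM (n = 6) in controls to 8.52 ± 2.76, 5.01 ± 1.86 and 4.23 ± 2.15 CPM (n = 4 each), and every pair of neighbours in that order overlapped. The log2 changes were -1.09 (SE 0.29, adjusted p = 0.0369), -1.86 (SE 0.31, adjusted p = 0.000113) and -2.12 (SE 0.31, adjusted p = 1.14e-05) by edgeR at 10, 30 and 62.5 mg/kg/d. The call at 10 mg/kg/d was lost in 7 of the 30 fits that left out 1 library each (without dam 2305 the adjusted p was 0.123), and with the replicate block the adjusted p was 0.111.

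Nqo1 gave the only calls among the 3 genes in the PFO4DA dams at single doses, in 3 of 18 tests in fetal liver and 0 of 18 in maternal liver, where edgeR gave 0 unadjusted p-values under 0.05 and DESeq2 called 0. Over all genes in maternal liver, 269, 221, 285, 825, 724 and 1466 of 10263 had such a p by edgeR under rising doses. The background in fetal liver was 0%, 0%, 0.304%, 2.64%, 6.44% and 10.6% of 11172 genes at 0.3, 1, 3, 10, 30 and 62.5 mg/kg/d. The slope of Nqo1 in fetal liver was -0.37 per unit of log2(dose + 1) (SE 0.038, adjusted p = 2.40e-09 by edgeR), against 18.9% of genes called in that trend. The difference of Nqo1 in fetal liver within runs was -2.05 and -1.78 at 30 mg/kg/d. All dams at 62.5 mg/kg/d belong to the second run. Against that run's own controls, Nqo1 there differed by -2.36 in fetal and -0.47 in maternal liver.

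**Figure D2:**
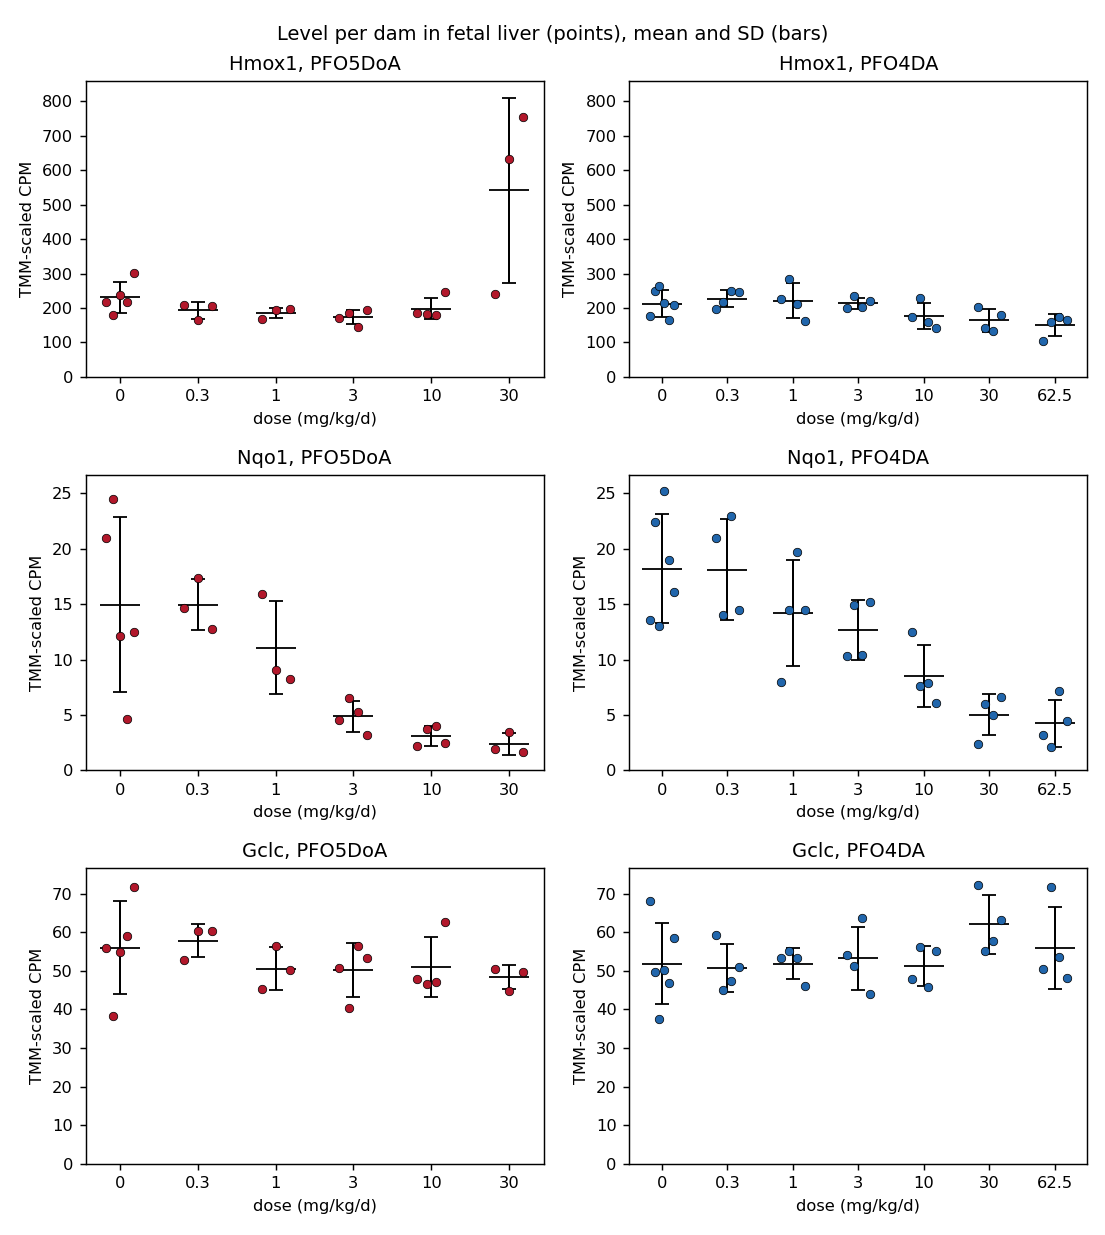
TMM-scaled CPM of Hmox1, Nqo1 and Gclc in fetal liver by dose (mg/kg/d), with a point per dam and bars for the mean and SD of each group; PFO5DoA is on the left and PFO4DA on the right. Nqo1 descends with dose on both sides, Hmox1 stands out at 30 mg/kg/d PFO5DoA, where the livers are at 240, 631 and 754 CPM, and Gclc keeps overlapping with its controls.

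In maternal liver Nqo1 fell under PFO5DoA at the 2 highest doses. The maternal controls were at 22.9, 25.0, 32.9, 42.3 and 107 CPM, and the highest of them was dam 2263. The maternal livers at 10 mg/kg/d were at 11.5, 12.1, 18.2 and 20.4 CPM, and those at 30 mg/kg/d at 10.1, 10.8, 17.5 and 21.3 CPM. All 8 were below the lowest control, and both groups overlapped with each other. The log2 changes were -1.57 (SE 0.42, adjusted p = 0.0159 by edgeR) at 10 mg/kg/d and -1.63 (SE 0.42, adjusted p = 0.00404) at 30 mg/kg/d; without dam 2263 they shrank to -0.99 and -1.04, with adjusted p-values of 0.0497 and 0.0126. Without dam 2284, which was at 11.5 CPM, the change at 10 mg/kg/d had an adjusted p of 0.0588. At 3 mg/kg/d the change was -1.40 (SE 0.41) and did not pass, with an adjusted p of 0.0753. Within the runs, the mean log2 difference from the run's own controls was -1.59 and -1.02 at 10 mg/kg/d, with 2 dosed dams in each run. For 30 mg/kg/d, where all dams belong to the second run, it was -1.13 against 2 control dams.

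The maternal decline had a slope of -0.30 per unit of log2(dose + 1) (SE 0.071, adjusted p = 0.00146 by edgeR). In that trend 42.2% of the 10615 tested genes passed, and at single doses of PFO5DoA the shares in maternal liver were 0%, 0.452%, 2.65%, 14.0% and 39.8% at 0.3, 1, 3, 10 and 30 mg/kg/d. Under PFO4DA the maternal mean of Nqo1 went from 35.8 ± 6.38 CPM in controls (n = 6) to 24.7 ± 3.61 CPM at 62.5 mg/kg/d (n = 4). The change there was -0.54 (95% interval -1.15 to 0.068), with an adjusted p of 0.424, and the slope of -0.097 did not pass either (adjusted p = 0.177 by edgeR). In maternal liver of PFO4DA dams few genes passed at all: 0%, 0%, 0%, 0.00974%, 0.633% and 2.46% of 10263 from 0.3 to 62.5 mg/kg/d, and 2.80% in the trend.

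Gclc, the glutathione synthesis gene, fell in maternal liver under PFO5DoA and was called at no dose in the fetus, where 0 of its 11 tests had an unadjusted p under 0.05. In fetal liver 398, 2126, 2092, 3089 and 4581 of 11509 genes had such a p by edgeR under rising PFO5DoA doses. Under rising PFO4DA doses 1125, 876, 781, 1787, 2012 and 2478 of 11172 genes did. The maternal controls were at 64.9, 102, 133, 149 and 183 CPM. The maternal livers at 30 mg/kg/d were at 37.2, 42.3, 43.8 and 84.6 CPM. Of these 4 dams, 3 lay below every control, and dam 2285 lay above the lowest control. The mean was 51.9 ± 21.9 CPM (n = 4), or 41.1% of the control mean of 126 ± 45.1 CPM (n = 5), and the log2 change was -1.28 (SE 0.31, adjusted p = 0.00241 by edgeR). At 10 mg/kg/d, with livers at 36.4, 60.8, 83.1 and 100.3 CPM, the change of -0.85 (SE 0.31) had an adjusted p of 0.0673. Over all doses the slope was -0.22 (SE 0.052, adjusted p = 0.00141 by edgeR). Within the second run, which holds all dams at 30 mg/kg/d, the difference was -1.33 against its 2 control dams.

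In fetal liver Gclc stayed between 38.3 and 71.8 CPM over all PFO5DoA groups and between 37.4 and 72.3 CPM over all PFO4DA groups. Its log2 change was -0.21 (95% interval -0.56 to 0.13) at 30 mg/kg/d PFO5DoA and 0.11 (95% interval -0.18 to 0.40) at 62.5 mg/kg/d PFO4DA. The PFO5DoA slope was -0.043 (SE 0.027, adjusted p = 0.218 by edgeR). With the run as a covariate that trend called 2 of the 3 genes. Hmox1 was not among them, so Gclc passed in that fit. Within runs Gclc differed by -0.05 and -0.26 at 10 mg/kg/d PFO5DoA, and by -0.43 at 30 mg/kg/d, against 2 control dams of the second run. None of the 11 fetal dose groups of Gclc was free of overlap with its controls. In maternal liver of PFO4DA dams its change at 62.5 mg/kg/d was -0.040 (95% interval -0.49 to 0.41), around a control mean of 88.7 ± 17.6 CPM (n = 6).

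Hmox1, the haem-degrading enzyme, rose in the fetal livers of 1 group. At 30 mg/kg/d PFO5DoA the fetal livers were at 240, 631 and 754 CPM, and the fetal controls were at 179, 218, 218, 239 and 301 CPM. The livers of dams 2287 and 2288 were far above every control, and that of dam 2285 lay within the control range. The log2 change was 1.23 (SE 0.24, adjusted p = 0.000444 by edgeR), from 231 ± 44.8 CPM (n = 5) to 542 ± 269 CPM (n = 3), and the call held in each of the 22 fits that left out 1 library. At lower doses the fetal means were between 174 and 198 CPM, below the control mean, and their log2 changes of -0.22 to -0.41 did not pass. The positive slope of 0.20 (SE 0.055, adjusted p = 0.00554 by edgeR) was no longer called without dam 2288 (adjusted p = 0.0666). Within the second run the difference at 30 mg/kg/d was 0.92 against 2 control dams, and with the run as a covariate the slope of 0.14 had an adjusted p of 0.118.

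Under PFO4DA fetal Hmox1 fell across the doses. The 6 controls ranged from 164 to 265 CPM with a median of 211, and the livers at 62.5 mg/kg/d were at 105, 160, 164 and 175 CPM. The highest of them overlapped with the lowest controls. The change at 62.5 mg/kg/d was -0.49 (SE 0.17, adjusted p = 0.0583 by edgeR and 0.0375 by DESeq2), and across doses the slope of -0.094 (SE 0.021) passed with an adjusted p of 0.00119.

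In maternal liver Hmox1 was lower at 10 mg/kg/d PFO5DoA, where the livers were at 25.7, 34.7, 54.0 and 57.1 CPM. The controls were at 59.5, 68.3, 69.0, 73.2 and 129.8 CPM, so the groups did not overlap. The change of -0.90 (SE 0.30) passed narrowly, with an adjusted p of 0.0450 by edgeR, and the call was lost in 12 of the 23 fits that left out 1 library; without the high control, dam 2265, the change was -0.65 with an adjusted p of 0.117. At 30 mg/kg/d the livers were at 40.6, 53.6, 64.0 and 114 CPM and overlapped with the controls, and the change of -0.23 (95% interval -0.83 to 0.37) did not pass. The maternal slope was -0.12 (SE 0.057, adjusted p = 0.0833 by edgeR), and without dam 2285 it was -0.20 and passed (adjusted p = 0.00351). Under PFO4DA the maternal livers at 3 mg/kg/d were at 57.6, 71.4, 111 and 249.5 CPM, with dam 2315 alone far above the control range of 51.5 to 102 CPM. The change in that group was 0.65 (SE 0.33), with an adjusted p of 1.00.

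**Figure D3:**
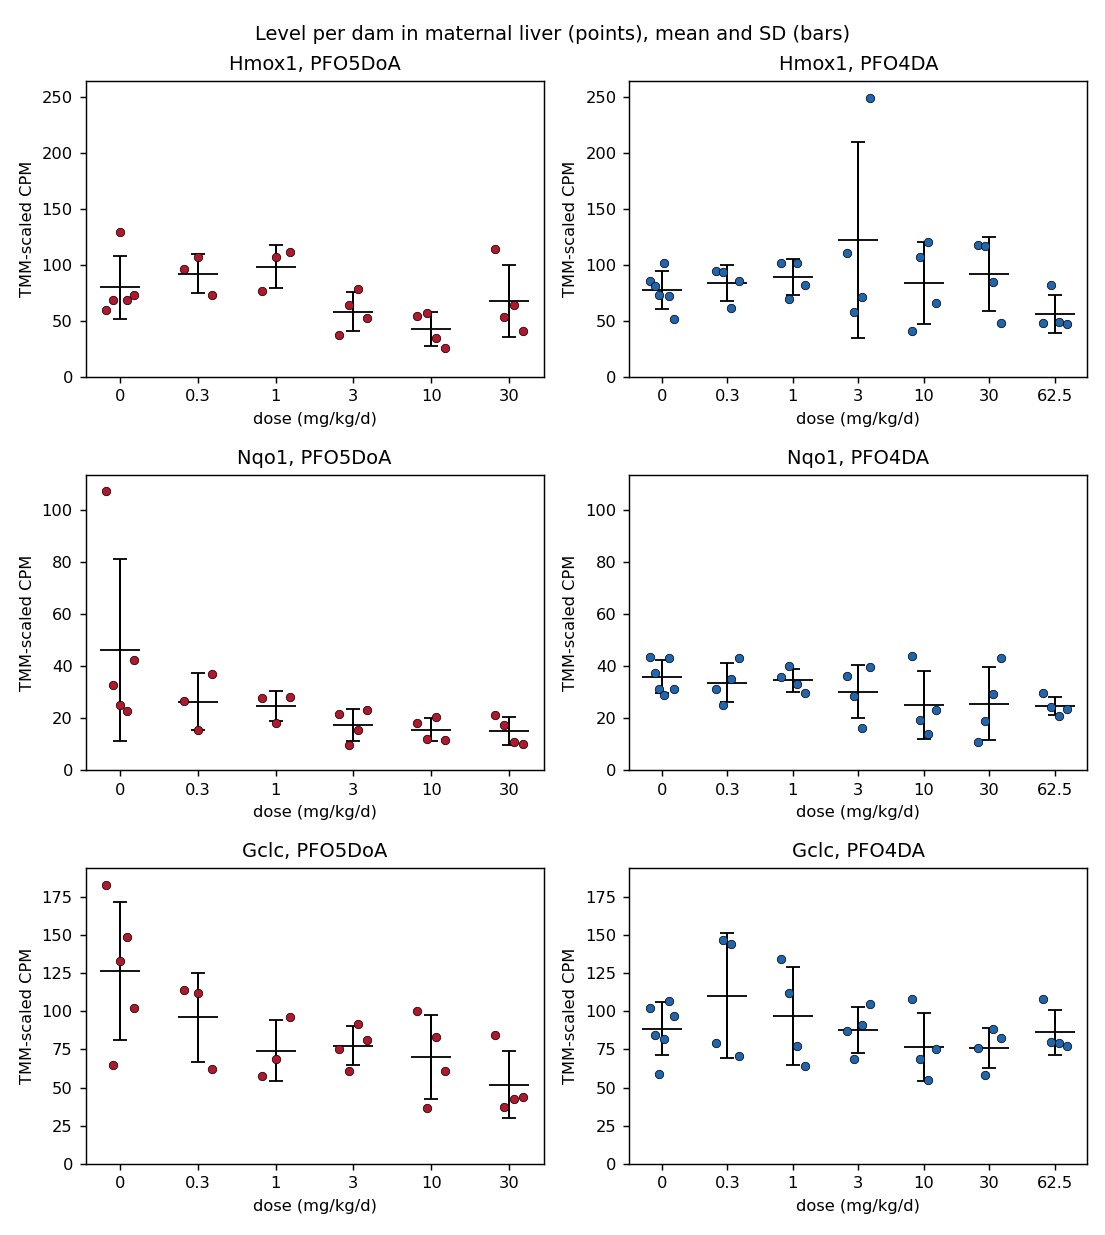
TMM-scaled CPM of Hmox1, Nqo1 and Gclc in maternal liver by dose (mg/kg/d), with a point per dam and bars for the mean and SD of each group; PFO5DoA is on the left and PFO4DA on the right. Nqo1 and Gclc descend on the PFO5DoA side from controls that reach 107 and 183 CPM, and the PFO4DA groups of all 3 genes overlap with their controls.

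At 30 mg/kg/d PFO5DoA, dam 2285 had the highest maternal level of the 4 dams in all 3 genes, at 114 CPM for Hmox1, 21.3 CPM for Nqo1 and 84.6 CPM for Gclc, and the lowest of the 3 fetal levels of Hmox1. This dam was singled out after its values were seen.

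**Figure D4:**
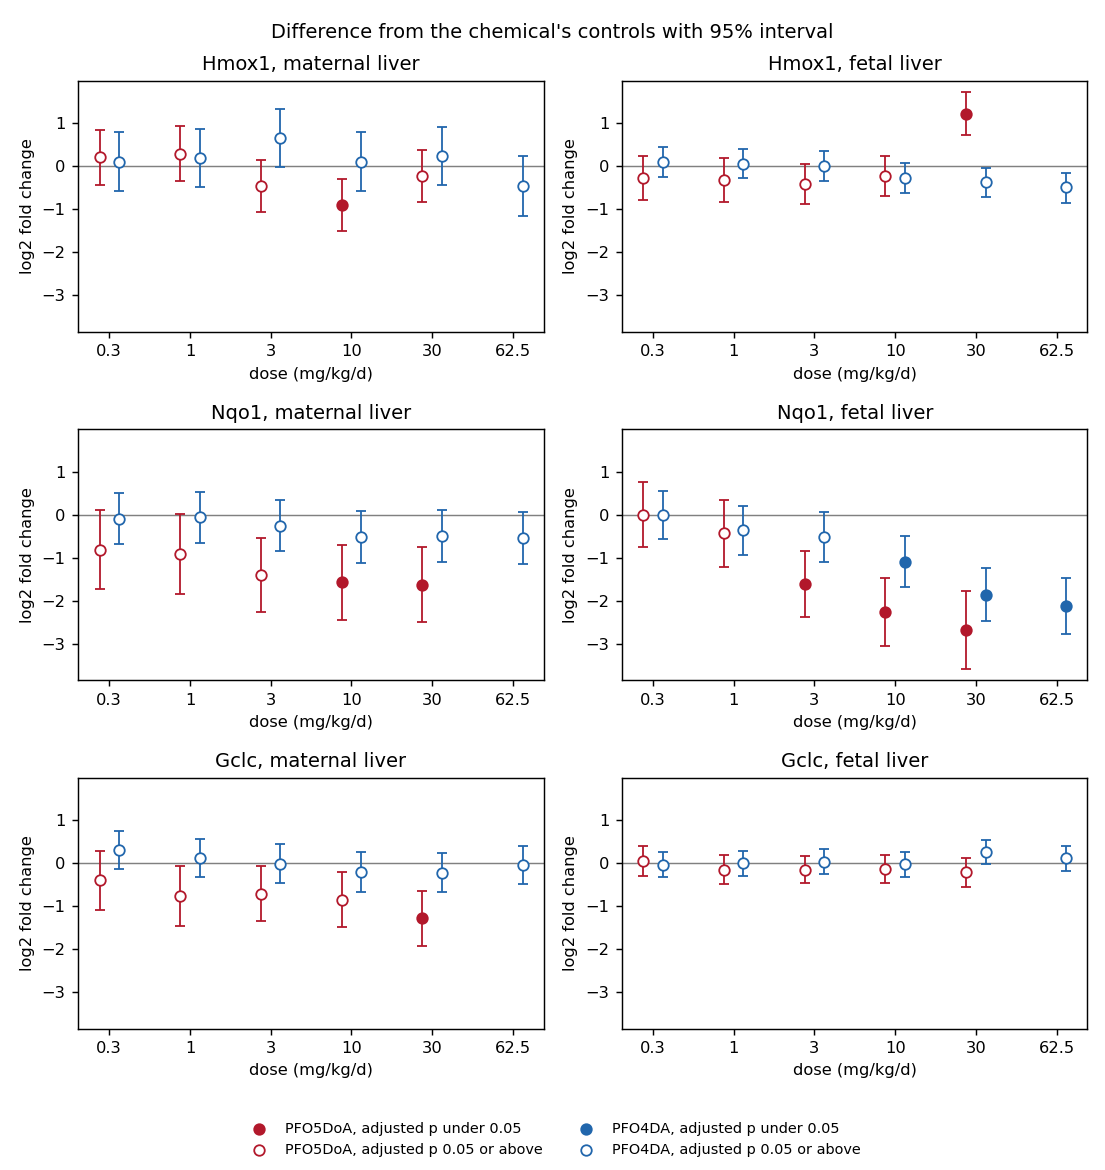
Log2 fold change against the controls of the same chemical by dose (mg/kg/d), with 95% intervals, for each gene in maternal (left) and fetal (right) liver; filled points have an adjusted p under 0.05. Nqo1 reaches -2.67 and -2.12 in fetal liver at the highest doses of PFO5DoA and PFO4DA, and the fetal Hmox1 value of 1.23 at 30 mg/kg/d PFO5DoA is the only filled point above 0.

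Over all by-dose tests, Nqo1 was called in 8 of 22, with 21 of its 22 changes negative. Hmox1 was called in 2 of 22, with 11 changes positive and 11 negative, and Gclc in 1 of 22, with 15 negative. Over all genes, 6.20% of the tests in these 22 comparisons passed, and the 2 and 1 calls of Hmox1 and Gclc are near that share. The groups of 1 chemical share their controls, so these counts are not independent of each other. The median log2 change over all genes lay between -0.068 and 0.024 in these comparisons.

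The acids were compared at the 5 doses that both have, as the difference between their log2 changes. In fetal liver 1 of 15 differences passed, and in maternal liver 1 of 15, with all p-values adjusted over all genes tested. Fetal Hmox1 at 30 mg/kg/d differed by 1.60 (95% interval 1.02 to 2.17, adjusted p = 8.39e-05 by edgeR), being higher under PFO5DoA. Maternal Gclc at 30 mg/kg/d differed by -1.06 (95% interval -1.83 to -0.29, adjusted p = 0.0429), being lower under PFO5DoA, and this call was lost in 12 of the 53 fits that left out 1 library, with adjusted p-values up to 0.112 (without dam 2263). The background was 0.00852%, 0.707%, 1.56%, 4.07% and 13.6% of 11732 genes in fetal liver, and 0%, 0.128%, 0.804%, 8.55% and 20.0% of 10951 genes in maternal liver, at 0.3, 1, 3, 10 and 30 mg/kg/d.

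Nqo1 did not pass this comparison at any dose. In fetal liver its difference was -1.09 (95% interval -2.02 to -0.16, adjusted p = 0.32 by edgeR) at 3 mg/kg/d, -1.16 (-2.12 to -0.21, adjusted p = 0.178) at 10 mg/kg/d and -0.82 (-1.86 to 0.22, adjusted p = 0.330) at 30 mg/kg/d. In maternal liver it was -1.14 (-2.15 to -0.13, adjusted p = 0.103) at 30 mg/kg/d. Of its 10 differences over both livers, 9 were negative.

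The response of the fetus was then set against that of its mother, with the dam as a block. Under PFO4DA the fall of Nqo1 was larger in the fetus at 62.5 mg/kg/d, by -1.64 (95% interval -2.35 to -0.92, adjusted p = 0.00462 by edgeR), the only 1 of 18 tests to pass, and at 30 mg/kg/d the difference of -1.31 (-2.02 to -0.60) had an adjusted p of 0.0598. In the PFO4DA dams 0%, 0%, 0.00861%, 0.500%, 1.02% and 2.81% of 11610 genes passed from 0.3 to 62.5 mg/kg/d. Under PFO5DoA 0 of 15 passed by edgeR, with 3 at an unadjusted p under 0.05. Over all genes, 365, 1698, 1702, 2368 and 3535 of 11968 had such a p by edgeR from 0.3 to 30 mg/kg/d. DESeq2 called 2 of the 15, and its share over all genes is not given here. At 30 mg/kg/d the differences were 1.31 for Hmox1 (0.25 to 2.36, adjusted p = 0.0885), 0.94 for Gclc (0.26 to 1.61, adjusted p = 0.0537) and, for Nqo1, within -2.15 to 0.15 (adjusted p = 0.237). The Hmox1 difference depended on single dams: it was 2.16 (adjusted p = 0.000965) without dam 2285 and 0.61 (adjusted p = 0.502) without dam 2288. The background under PFO5DoA was 0%, 0.117%, 1.19%, 4.77% and 15.1% of 11968 genes.

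The 3 genes could also be compared dam by dam, after each value was taken from the mean of its dose group. In fetal liver Nqo1 and Gclc varied in opposite directions over 52 dams, with Pearson's r of -0.44 (permutation p = 0.0111, 0.10 adjusted over the 9 relations computed) and Spearman's rho of -0.45 (permutation p = 0.00393, adjusted 0.0354). Only rho passed the adjustment. How many other gene pairs vary as strongly was not counted. The r was -0.38 without the 2 dams farthest from the median of Nqo1, -0.54 in the 22 PFO5DoA dams and -0.35 in the 30 PFO4DA dams. Dams far out in Gclc alone were not left out. In maternal liver the same pair varied together over 53 dams, with r = 0.33 (permutation p = 0.0396, adjusted 0.178) and rho = 0.32 (permutation p = 0.0411, adjusted 0.185), which did not pass the adjustment. This r was 0.28 without the 2 dams farthest in Nqo1. Whether the sign differs between the livers was not tested. Neither the group means nor the permutations took the runs of dam identifiers into account, and a part played by the runs was not tested. The remaining 7 relations, which include each gene in the mother against the same gene in her fetus, had r between -0.25 and 0.25 and adjusted p-values of 0.298 and above for r. Some of them shifted with the dams taken: Hmox1 in the mother against her fetus had r = -0.53 in the 22 PFO5DoA dams and -0.01 in the 30 PFO4DA dams, and maternal Hmox1 against Nqo1 went from -0.25 to -0.41 without the 2 dams farthest in Hmox1. Neither shift was tested.

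**Figure D5:**
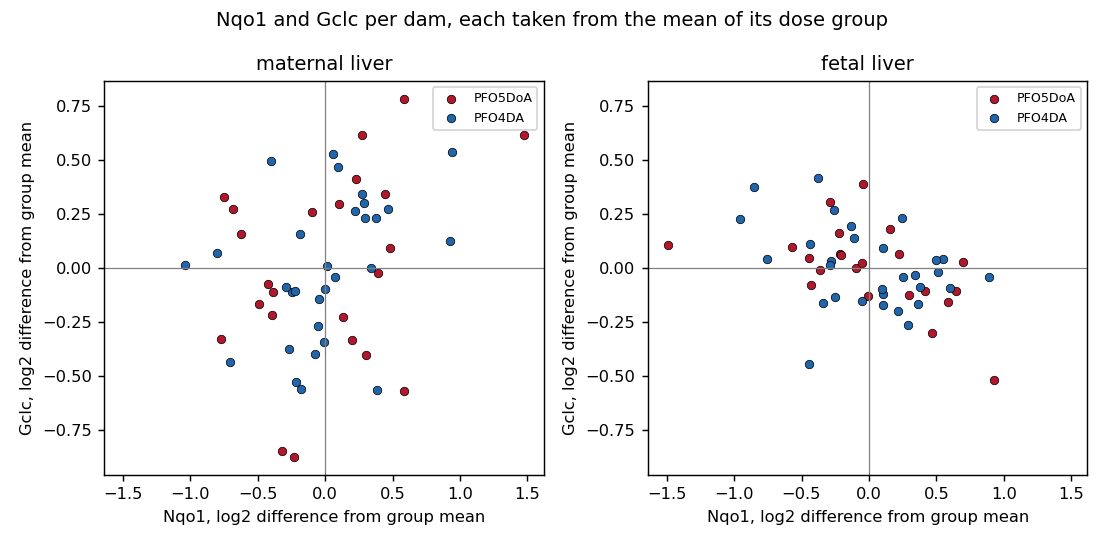
Nqo1 (x axis) and Gclc (y axis) per dam as log2 differences from the mean of the dam's dose group, in maternal (left) and fetal (right) liver, with colour giving the chemical. The fetal points slope downwards (r = -0.44 over 52 dams), and the maternal points slope upwards with a wide scatter (r = 0.33 over 53 dams).

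Across doses as well as dams, with each library taken from the control mean of its chemical, the genes most like the 3 were ranked by Pearson's r over the libraries of a life stage. These libraries share doses, controls and scaling, so r is a description. For fetal Nqo1 the closest were ENSRNOG00000017752 (r = 0.9164) and ENSRNOG00000004502 (r = 0.9008) of 7529 genes, over 52 libraries. For fetal Hmox1 they were ENSRNOG00000003276 (r = 0.7772) and ENSRNOG00000054765 (r = 0.7638). Among the 3 genes themselves the closest pair was Nqo1 and Gclc in maternal liver, with r = 0.6438 over 53 libraries, which placed Gclc at rank 390 of 6515 genes for Nqo1. In fetal liver r was -0.1654 for that pair, 0.002824 for Hmox1 and Nqo1 and -0.09461 for Hmox1 and Gclc.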

How the data were processed

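Maternal and fetal rat liver RNA was assayed with TempO-Seq, whose panel holds 22253 probes for 20924 genes per the labels' protocols. The authors deposited 1 table per chemical, holding raw estimated counts for each gene in each library. The build mRatBN7.2 and the tools Partek, DESeq2, R and STAR 2.7.8a come from the submitters' processing notes, and the labels name Partek Flow build 10.0.22.1115; which tool made which step is not given in the sources used here. All 111 columns were mapped to dams by name. These estimated counts, 11.8% of which in the PFO4DA table and 12.2% in the PFO5DoA table had decimals as deposited, were rounded before testing.

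Dam 2279 was not used in the main tests, as a library of this dam held only 45505 counts. The 2 dams at 0.1 mg/kg/d PFO5DoA entered no main test and were kept only in alternative fits. The tests used edgeR 4.0.16 in R 4.3.3 (TMM, filterByExpr, robust glmQLFit and glmQLFTest), with 1 fit per chemical and life stage, a joint fit for the difference between chemicals and a dam-blocked fit for that between life stages. P-values were adjusted by Benjamini-Hochberg over all genes tested, and an adjusted p under 0.05 counted as a call. The scripts were tested on simulated data. Alternatives were DESeq2 1.42.0, limma 3.58.1 on log2(CPM + 1), RLE scaling, other filters, covariates and samples. Correlations used 100000 permutations within dose groups and were added after the data were seen.

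The 3 genes were given by identifier, each was described at every dose, and the 3 genes most like each were ranked by r among genes of at least 5 CPM on average. The 3 genes and the lists were chosen with earlier results of these data known. The lists (218 entries) could not be looked up, since 0 of 20311 identifiers matched a named entry of the reference table, and no list is reported. Replicates are separate dams. Fetuses of 1 dam are not independent of their mother.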

Additional observations from a re-analysis of the deposited data

Results flagged for a closer look

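For the 3 genes in the 21 groups of 4 to 6 dams, 63 sets of values in all, 7 had 1 dam whose gap to the nearest other dam was large for the range of its set. For normally distributed values, chance gives such a gap in about 1 of 20 independent sets. The gaps were taken in CPM, where high values lie farther apart than on the log scale. The sets are also not independent, since the 3 genes come from the same libraries. Dam 2263, a PFO5DoA control, was at 107 CPM for maternal Nqo1, with the nearest other control at 42.3. Dam 2265, another PFO5DoA control, was at 129.8 CPM for maternal Hmox1, with the nearest at 73.2. At 30 mg/kg/d PFO5DoA, dam 2285 was at 84.6 CPM for maternal Gclc, with the nearest at 43.8. At 10 mg/kg/d PFO5DoA, the fetal liver of dam 2284 was the highest for 2 of the genes, at 246 CPM for Hmox1 (nearest 184) and 62.7 CPM for Gclc (nearest 47.9). At 62.5 mg/kg/d PFO4DA, dam 2320 was at 81.9 CPM for maternal Hmox1 (nearest 49.3) and dam 2319 at 108 CPM for maternal Gclc (nearest 79.9). All 7 were high values.

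The fall of Nqo1 at 62.5 mg/kg/d PFO4DA differed between the livers of the same dams by -1.64 on the log2 scale, in a test of the difference itself, and the fetal change was the larger.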

How the results depend on the processing

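Leaving the 3 genes out of the correlation changed the life stage of 0 dams, so that refit repeats the main fit and tests nothing further. The counts of member calls kept within 1.5 times of their value under RLE scaling and under the replicate block, in every comparison where these were run. Also within that margin, DESeq2 gave 6 calls by dose in maternal liver under PFO5DoA in place of 4. Beyond it, the counts moved as follows. With DESeq2 the calls between life stages went from 0 to 2 under PFO5DoA and from 1 to 2 under PFO4DA; without a filter on low counts they went to 3 and 2, and the maternal call between chemicals was lost (0). With limma on log2(CPM + 1) 1 call between life stages appeared under PFO5DoA, as it did with the 0.1 mg/kg/d dams kept (1). With the dam run as a covariate the difference between chemicals gave 2 calls in fetal and 0 in maternal liver. A minimum fold of 1.5 left 0 calls in the 3 trends that had any (2 each), where it applies to the slope per unit of log2(dose + 1), 0 between chemicals in maternal liver, 0 between life stages under PFO4DA and 2 of 4 by dose in maternal liver under PFO5DoA. With each dose fitted with its own controls alone, maternal liver gave 2 calls under PFO5DoA and 1 under PFO4DA. Summing both livers of a dam, which needs no life stage, gave 1 call by dose and 2 in the trend in place of the 0 and 0 of maternal liver under PFO4DA, and 1 in place of the 3 by dose of its fetal liver; the sum mixes 2 livers and is another quantity. Of single calls, maternal Nqo1 at 10 mg/kg/d PFO5DoA was lost with its own controls alone (adjusted p = 0.0532), maternal Hmox1 there also without a filter (0.0665 and 0.0969), fetal Nqo1 at 10 mg/kg/d PFO4DA without a filter (0.0615) or with the run as a covariate (0.0656), and maternal Gclc between chemicals likewise (0.0827 and 0.0568). The shares of all genes that passed under these settings are not given here. A shift in these 3 genes and a shift in calls over all genes therefore cannot be told apart. The cause of these shifts was not tested.

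Directions turned in few cases, where the values reported had not passed. For maternal Gclc at 62.5 mg/kg/d PFO4DA the change of -0.040 became 0.074 with the replicate block and 0.001 in the summed livers. In the summed livers maternal Hmox1 under PFO5DoA turned to 1.01 at 30 mg/kg/d (adjusted p = 0.000240 by edgeR) and its slope to 0.14 (adjusted p = 0.0243), and the fetal Gclc slope under PFO4DA to -0.023. The correlation of Hmox1 with Gclc in maternal liver was -0.02 in plain CPM, a scaling chosen after seeing the data. Without 1 library each, fetal Gclc at 62.5 mg/kg/d PFO4DA ranged from -0.02 to 0.20, maternal Gclc there from -0.17 to 0.014 (0.004 without dam 2293), and maternal Hmox1 at 30 mg/kg/d PFO5DoA from -0.60 to 0.011.

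Leaving out 1 library (or dam, between life stages) at a time, the calls by dose ranged from 2 to 5 in maternal and 4 to 4 in fetal liver under PFO5DoA, with the lowest without dam 2284, and from 0 to 0 and 2 to 4 under PFO4DA. The trend calls ranged from 2 to 3 and 1 to 2 under PFO5DoA and from 0 to 0 and 2 to 2 under PFO4DA. The calls between chemicals ranged from 0 to 1 in maternal and 1 to 1 in fetal liver, and those between life stages from 0 to 2 under PFO5DoA and from 1 to 2 under PFO4DA, where 14 of the dams (0, 30 and 62.5 mg/kg/d) were left out in turn. The refits of the joint and the dam-blocked models kept the genes and dispersion trend of the full fit. The deep library of dam 2279, kept as an alternative chosen after seeing the data, changed 1 result: the maternal slope of Hmox1 under PFO5DoA went from -0.12 to -0.14 (adjusted p = 0.0469).

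The replicate numbers of the titles did not pair the samples: correlations of same-numbered libraries of a life stage ranged from -0.5252 to 0.6378, with medians between -0.03032 and 0.02142. With the number as a replicate block, 2 in place of 3 tests by dose were called in fetal liver under PFO4DA, and 4 and 4 remained the counts under PFO5DoA. Fetal Nqo1, at 20 counts in its lowest library, is the value that depth limits most.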

Other observations

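The 2 dams at 0.1 mg/kg/d PFO5DoA, in CPM scaled by library totals, had fetal Hmox1 at 152 and 152, where controls ranged from 184 to 297. Their maternal Hmox1 was at 89.9 and 101 (controls 65.8 to 103). Maternal Nqo1 was at 15.5 and 23.9 (controls 19.8 to 118) and fetal Nqo1 at 17.8 and 22.7 (controls 5.03 to 25.3). Gclc was at 77.8 and 57.5 in their maternal livers (controls 65.3 to 202). In their fetal livers Gclc was at 69.9 and 29.9 (controls 39.5 to 70.8). The deep library of control dam 2279, whose expression correlated with the maternal library of dam 2286 at r = 0.9695, held Hmox1 at 95.2, Nqo1 at 20.0 and Gclc at 97.9 CPM.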
